A study of Mus musculus with 45 samples.

Results

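The genes examined were 10 genes of endocrine secretory cells: the granins Chga, Chgb, Scg2, Scg3 and Scg5, the prohormone-processing genes Pcsk1, Pcsk1n and Cpe, and the transcription factors Neurod1 and Neurog3. They were chosen by name, all 10 were found among the 47729 genes of the tables, and 7 of them passed the filter on low counts (over 5 reads in 6 or more of the 45 libraries) that left 14020 genes for testing. Scg5, Pcsk1n and Neurog3 did not pass it and are given by their reads only.

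The libraries were bulk Smart-seq2 RNA-sequencing libraries of cells sorted as tuft cells from the small intestine of male C57BL/6J mice. The study's methods write the gate as EpCAM+CD45+Siglec-F+ but also state that cells co-expressing CD45 were excluded. Its results define tuft cells as EpCAM+SiglecF+. No transgene was named for any mouse, all mice were acclimatised on chow and housed at thermoneutrality, and each library came from 1 mouse. A high fat diet (HFD, 60% of energy from fat) was compared with a low-fat reference diet (RFD, 10%), in 11 RFD and 11 HFD libraries after 9 weeks and in 11 RFD and 12 HFD libraries after 22 weeks. The sample labels gave 9 weeks for all 45 libraries, so the second set was taken as the 22 weeks that the study's methods describe, and feeding time and set of libraries cannot be told apart.

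Enteroendocrine cells are the hormone-secreting cells of the gut epithelium. They store peptide hormones in dense-core granules, whose matrix is formed by granins, and they cut hormones from larger precursors with enzymes such as prohormone convertase 1 and carboxypeptidase E. Neurog3 starts the endocrine lineage from intestinal progenitors, Neurod1 acts after it, and tuft cells, the taste receptor-like chemosensory cells of the same epithelium, are a separate lineage.

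The cAMP response element is a known regulatory sequence of granin promoters, and the sites are shown so that the letters before the start of the most-read members can be compared. Whether members with and without the element differed in these data was not tested. For 9 of the 10 genes the highest CPM at 9 weeks was in the same library (described further on), which cannot show such a difference. The 250 bases before the RefSeq start (GRCm38.p6) were available for 9 of the 10 genes. The element TGACGTCA, which reads the same on both strands, was in this window of 3 of the 9, Scg2, Chgb and Pcsk1, against 1.55% of the 32851 promoter windows of the same length. Its 5-letter core TGACG, searched on both strands and contained in the full element, was in 6 of the 9 (also Chga, Scg3 and Scg5), against 17.8% of all windows. In the 30-base stretches that follow, each read 5′ to 3′ on the strand of the gene, capitals mark the full element or, for Chga, the 5-letter core.
Scg2, chr1:79440076-79440105, minus strand: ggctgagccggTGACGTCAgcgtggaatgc
Chgb, chr2:132781559-132781588, plus strand: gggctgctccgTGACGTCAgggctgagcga
Pcsk1, chr13:75089768-75089797, plus strand: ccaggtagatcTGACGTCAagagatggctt
Chga, chr12:102554885-102554914, plus strand: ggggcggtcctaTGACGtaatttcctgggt
The element began 68, 72 and 78 bases before the RefSeq start in Scg2, Chgb and Pcsk1, and the 5-letter core of Chga began 44 bases before it. GENCODE M21 has longer transcripts of Scg2 and Chgb, so that these 2 sites lie in a 5′ untranslated exon there, whereas those of Pcsk1 and Chga lie before the first annotated exon. A match of letters does not show that a factor binds.

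The libraries held 189340 to 4690213 reads on genes each, and 2 libraries at 9 weeks held fewer than 500000 reads. The summed TPM (transcripts per 1000000 transcripts) of 15 tuft markers, among them Dclk1 and Trpm5, ranged from 53.2 to 16439 over the 45 libraries, and that of 7 Paneth cell markers from 149.2 to 398105. The HFD library of mouse 8 at 9 weeks stood apart for the genes examined. It held 34.3% of the CPM (normalised reads per 1000000 reads on the genes tested) of the 10 genes summed over the 22 libraries of that set, with 2402 CPM against at most 819.3 in any other, and its tuft and Paneth marker sums were 766.2 and 329576 TPM. The diet effects on the 7 tested genes at 9 weeks are therefore given with and without it. Other results at 9 weeks include it unless stated.

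In order of mean TPM over the 45 libraries the 10 genes ran Chgb, Chga, Pcsk1, Scg2, Cpe, Neurod1, Scg5, Scg3, Neurog3 and Pcsk1n. The median over the libraries was 10.3 TPM for Chgb, 3.94 TPM for Chga, 2.39 TPM for Pcsk1, 0.990 TPM for Neurod1, 0.730 TPM for Cpe and 0.620 TPM for Scg2, and it was 0 for the other genes. TPM is scaled by gene length and allows levels of different genes to be set side by side. Chgb exceeded Chga in 32 of the 45 libraries and Chga exceeded Pcsk1 in 31. For every other pair of neighbours in this order the first gene was the higher in at most 26 libraries, and for all 9 pairs the mean difference was smaller than its SD between libraries. Secretin (Sct), a hormone gene that was read in all 45 libraries, had a mean of 751.5 TPM. Chga and Chgb together made up most of the signal, with 67.8% of the summed CPM of the 10 genes from Chgb and 19.5% from Chga at 9 weeks, and 54.0% and 17.4% at 22 weeks.

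After 22 weeks, secretogranin 2 (Scg2) was lower on HFD, and it was the 1 gene of the 7 tested that passed the test. The question was whether HFD changed these genes in the sorted cells at each feeding time, and it was addressed with the quasi-likelihood (QL) test of edgeR, with p-values adjusted after Benjamini and Hochberg (BH) over all 14020 genes and a threshold of 0.1. All 7 tested genes had negative log2 fold changes of HFD against RFD, with a median of -2.50 against -0.03 over all genes tested. No HFD library at 22 weeks had more than 2 reads of Scg3 or 3 of Cpe. Scg3 passed the filter only with RFD libraries at 22 weeks counted, the group where it was higher. Its part in the counts and the median given here is therefore no separate support. Cpe passed the filter without those RFD libraries. Without the filter, the log2 fold changes of the 3 untested genes were -0.63 for Scg5, 0.28 for Pcsk1n and 0.16 for Neurog3. Of the 7, 1 was called, and 0.728% of all genes tested were called (102 genes). An unadjusted p under 0.05 was found for 6 of the 7, against 10.3% of all genes. In bulk samples, fewer cells of a type and less RNA per cell cannot be told apart.

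Scg2, a granin whose processing yields secretoneurin (chromosome 1, 79434669 to 79440120, minus strand, GRCm38), ranged from 0 to 103 reads in the 11 RFD libraries at 22 weeks with a median of 29. In CPM the lowest, median and highest values were 0, 21.7 and 51.1 on RFD and 0, 0.894 and 4.34 on HFD, where no library had more than 8 reads and 11 of 12 had at most 3. All 12 HFD libraries were under the RFD median and 7 of the 11 RFD libraries were above every HFD library, while the other RFD libraries overlapped with HFD. The mean was 20.1 ± 17.9 CPM in the RFD group (SD, n = 11), against 1.37 ± 1.42 CPM in the HFD group (SD, n = 12). The log2 fold change was -3.97 with SE 0.77 (adjusted p = 0.0130 by edgeR QL, BH), which is 15.7-fold lower on HFD. In the same edgeR test the call held without each library in turn (adjusted p from 0.00475 to 0.0344) and was lost in a single fit over the 4 groups (adjusted p = 0.103).

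Chgb, the chromogranin of the granule matrix with the most reads here (chromosome 2, 132781278 to 132795079, plus strand), ranged from 0.788 to 450.2 CPM on RFD with a median of 45.2. On HFD it ranged from 0 to 105.1 CPM with a median of 4.25. Only the HFD library of mouse 6 was above the RFD median, 2 HFD libraries without a Chgb read were below every RFD library, and the groups overlapped. The log2 fold change was -2.96 (SE 0.90) and missed the threshold (adjusted p = 0.175, edgeR QL, BH). It passed without the HFD library of mouse 6 (log2 fold change -4.27, adjusted p = 0.0258) and without the RFD library of mouse 3 (-3.15, adjusted p = 0.0851) in the same edgeR test. That RFD library had the fewest genes with reads of its set, 8609 against a group median of 19563.

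Chga, the chromogranin used as a general marker of endocrine cells (chromosome 12, 102554969 to 102565028, plus strand), was spread from 0 to 100.2 CPM on RFD with a median of 7.47 and from 1.04 to 58.8 CPM on HFD with a median of 3.87. The diets overlapped more than for Chgb, with 9 of 12 HFD libraries under the RFD median and 2 RFD libraries above every HFD library. Those 2, mice 1 and 22, had 402 and 130 Chga reads, against at most 52 in an HFD library. The log2 fold change was -1.58 with SE 0.74 (adjusted p = 0.465 by edgeR QL, BH).

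The balance of the chromogranins was read where a library had at least 20 reads on the pair. The TPM of Chgb exceeded that of Chga in 9 of 9 such RFD and 9 of 9 such HFD libraries at 9 weeks and in 7 of 7 RFD libraries at 22 weeks, with median ratios of 2.71, 2.31 and 2.92. Only 4 HFD libraries at 22 weeks reached 20 reads, and in 2 of them Chgb was the higher (ratios from 0.272 to 1.67). This difference in ratio was not tested.

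Scg3, a granin that binds chromogranin A to the granule membrane (chromosome 9, 75643189 to 75684056, minus strand), was sparse. It had reads in 6 of 11 RFD libraries (0 to 14 reads) and in 3 of 12 HFD libraries (0 to 2 reads) at 22 weeks, with 2.52 ± 3.63 and 0.231 ± 0.462 CPM (SD). Its log2 fold change of -3.26 (SE 0.98) missed the threshold (adjusted p = 0.171, edgeR QL, BH), and 6 RFD libraries were above every HFD library. It was called without the RFD library of mouse 1 (adjusted p = 0.0944) or of mouse 3 (adjusted p = 0.0995), in the same edgeR test. It was also called with a term for the series of mouse numbers described further on (log2 fold change -3.81, adjusted p = 0.0932 in that edgeR fit), in which HFD mouse 65, outside the series, has a term of its own and adds nothing to the diet effect.

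Among the processing genes, Cpe, the carboxypeptidase that trims basic residues after precursor cleavage (chromosome 8, 64592542 to 64693054, minus strand), had 0, 3.94 and 9.19 CPM as lowest, median and highest values on RFD at 22 weeks. On HFD these were 0, 0.222 and 2.72 CPM. All 12 HFD libraries were under the RFD median and 6 RFD libraries were above every HFD library. The log2 fold change was -2.50 (SE 0.83) and missed the threshold (adjusted p = 0.237, edgeR QL, BH).

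Pcsk1, prohormone convertase 1 (chromosome 13, 75089826 to 75134861, plus strand), had the smallest difference of the 7 at 22 weeks. It had 0, 9.07 and 31.4 CPM as lowest, median and highest values on RFD and 0, 5.49 and 10.7 CPM on HFD. The HFD libraries lay within the RFD range, and 11 of the 12 had Pcsk1 reads. The log2 fold change was -1.06 with SE 0.57 (adjusted p = 0.532 by edgeR QL, BH, approximate 95% interval from -2.17 to 0.05).

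Neurod1, a basic helix-loop-helix factor of endocrine differentiation (chromosome 2, 79452521 to 79456751, minus strand), had 0, 5.69 and 16.03 CPM as lowest, median and highest values on RFD at 22 weeks and 0, 0.443 and 9.04 CPM on HFD. Neurod1 was read in 10 of 11 RFD libraries but in 6 of 12 HFD libraries, and 10 of the 12 HFD libraries were under the RFD median. Its log2 fold change was -1.97 with SE 0.83 (adjusted p = 0.414 by edgeR QL, BH).

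**Figure D1:**
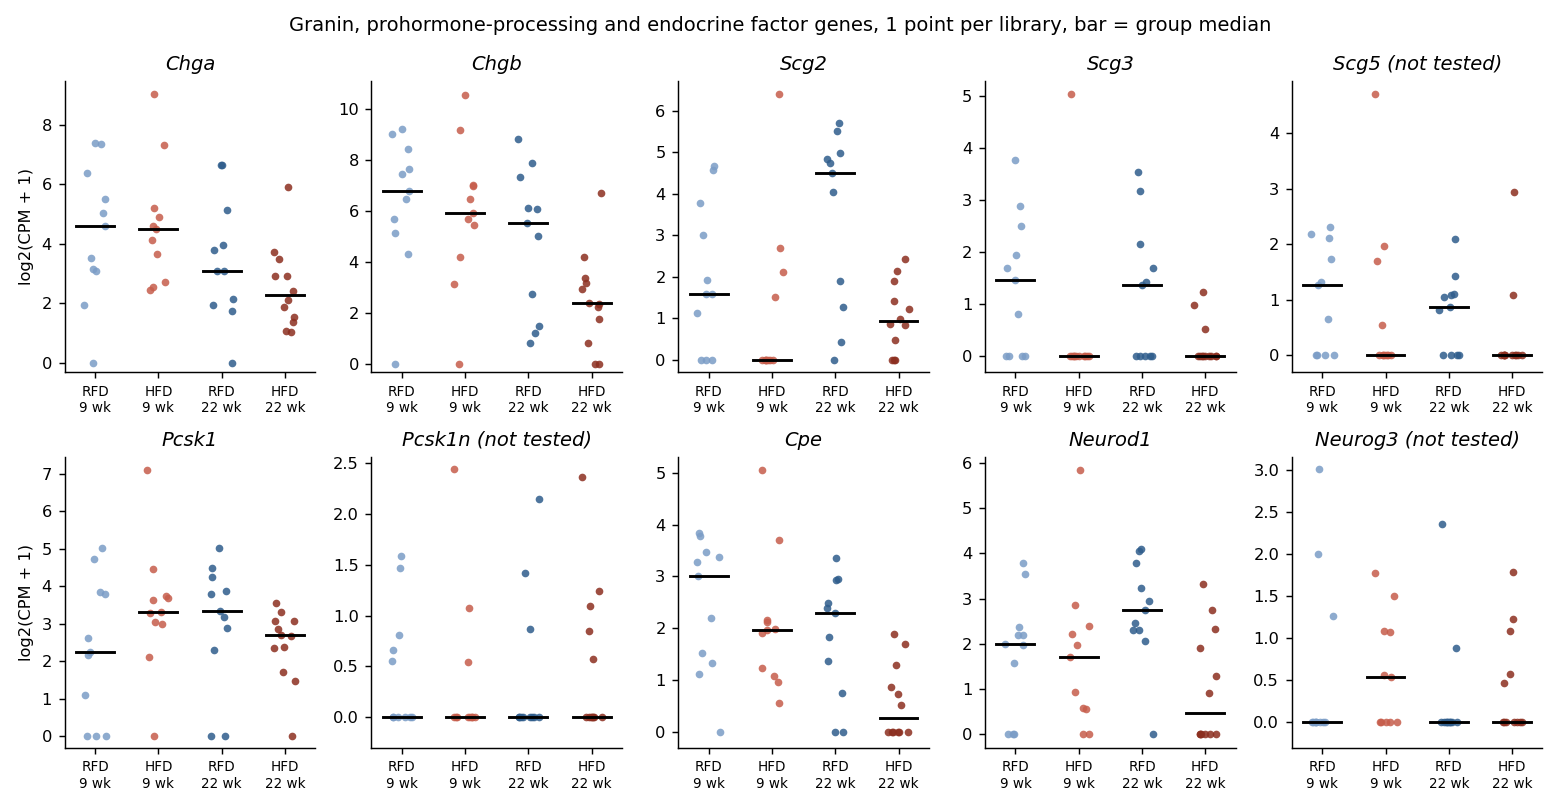
Level of each of the 10 genes as log2(CPM + 1) on the y axis, 1 point per library in each of the 4 groups (11, 11, 11 and 12 libraries), with the group median as a bar. At 22 weeks all 12 HFD points of Scg2, Scg3 and Cpe lie under the RFD median, and at 9 weeks 1 HFD library (mouse 8) lies far above the others for most of the genes.

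The genes left untested were close to the limit of detection in every group. Scg5, the chaperone 7B2 of prohormone convertase 2, had more than 5 reads in 4 libraries, and 62 of its 128 reads came from the HFD library of mouse 8 at 9 weeks. Pcsk1n, which encodes the convertase inhibitor proSAAS, had 36 reads in all 45 libraries together and Neurog3 had 38.3. At 22 weeks Neurog3 was read in 2 of 11 RFD and 5 of 12 HFD libraries and Pcsk1n in 3 of 11 and 5 of 12, with at most 5 reads in a library and Pcsk1n means of 0.539 and 0.662 CPM. In a fit without the filter on low counts, their adjusted p values at both times lay between 0.712 and 0.982 (edgeR QL, BH). In that fit the log2 fold changes of Scg5, Pcsk1n and Neurog3 were 0.91, 0.27 and -0.35 at 9 weeks. At 22 weeks they were -0.63, 0.28 and 0.16. The SE from 1.01 to 1.20 leaves wide intervals on both sides of 0.

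After 9 weeks none of these genes passed the test, and the direction of their estimates depended on the HFD library of mouse 8. Of the 7 tested genes, 0 were called, against 3.07% of all genes tested (431 genes), and 0 had an unadjusted p under 0.05, against 18.2% of all genes. Limma called 0 of the 7, and so did DESeq2, which gave no adjusted p for 4 of them. The log2 fold changes ran from -0.02 to 1.17 with a median of 0.42, against -0.05 over all genes tested.

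Chgb had 0, 110.9 and 588.0 CPM as lowest, median and highest values on RFD at 9 weeks and 0, 60.5 and 1516 CPM on HFD. The highest HFD value was that of mouse 8, and 7 of the 11 HFD libraries were under the RFD median. Its log2 fold change was 0.29 (SE 0.84) with all libraries and -0.82 without mouse 8 (adjusted p = 0.898 and 0.646, edgeR QL, BH).

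Chga had 0, 23.2 and 167.2 CPM as lowest, median and highest values on RFD at 9 weeks and 4.51, 21.8 and 515.1 CPM on HFD. The medians lay close together, and mouse 8 held 63.5% of the Chga reads of the HFD group. The log2 fold change was 0.62 (SE 0.81) with all libraries and -0.63 without mouse 8 (adjusted p = 0.743 and 0.719 by edgeR QL, BH).

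Scg2 and Scg3 depended on mouse 8 most. Scg2 had 0, 2.00 and 24.5 CPM as lowest, median and highest values on RFD, and on HFD 7 of 11 libraries had no read while mouse 8 reached 83.0 CPM, which was 92.4% of the Scg2 reads of the group. Scg3 was read in 7 of 11 RFD libraries (at most 11 reads) and, on HFD, in mouse 8 alone with 79 reads. With all libraries the log2 fold changes were 0.42 (SE 1.11) for Scg2 and 0.35 (SE 1.24) for Scg3. Without mouse 8 they were -2.59 and -5.33, with adjusted p of 0.277 and 0.118 (edgeR QL, BH), and Scg3 then had 0 reads in all HFD libraries, so that its fitted value is no measure of size.

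Pcsk1 had the largest log2 fold change of the 7 at 9 weeks, 1.17 (SE 0.78, adjusted p = 0.440 by edgeR QL, BH). It had 0, 3.76 and 31.4 CPM as lowest, median and highest values on RFD and 0, 8.91 and 135.8 CPM on HFD, and 9 of the 11 HFD libraries were above the RFD median. Without mouse 8, which held 64.2% of the reads of the HFD group, the log2 fold change was -0.01.

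Cpe had 0, 7.04 and 13.4 CPM as lowest, median and highest values on RFD at 9 weeks and 0.473, 2.91 and 32.2 CPM on HFD, where 9 of 11 libraries were under the RFD median. Neurod1 had 0, 3.01 and 12.8 CPM on RFD and 0, 2.25 and 56.4 CPM on HFD. For both genes the highest HFD value was again mouse 8. Their log2 fold changes were -0.02 (SE 0.74) and 0.87 (SE 0.88) with all libraries, and -0.92 and -0.87 without it.

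**Figure D2:**
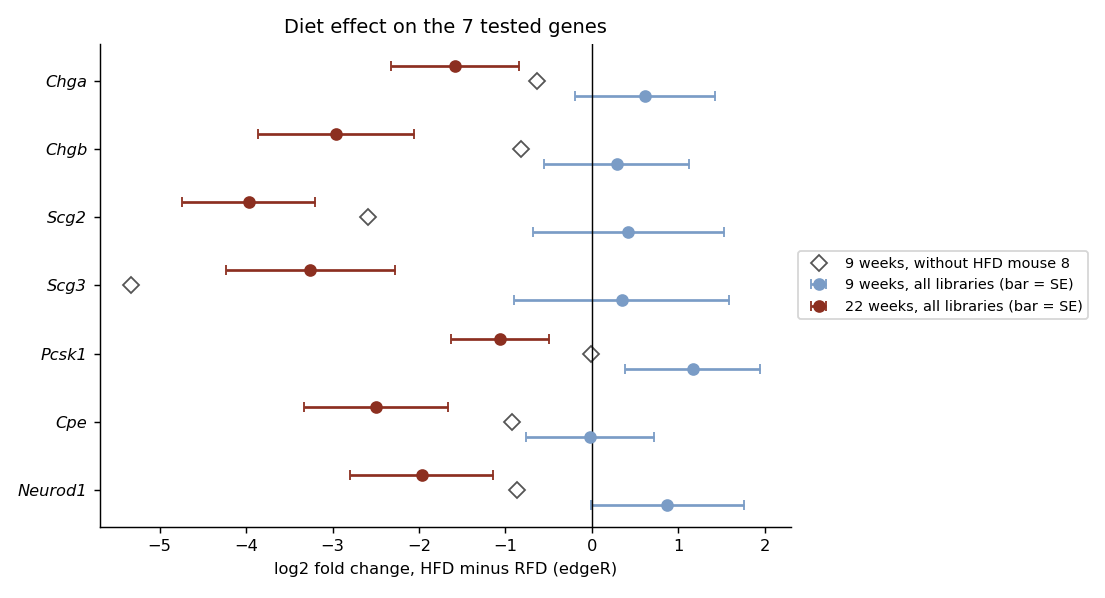
Log2 fold change of HFD against RFD on the x axis (edgeR) for the 7 tested genes, as filled points with the SE at 9 and at 22 weeks, and as open diamonds at 9 weeks without the HFD library of mouse 8. All 7 estimates lie below 0 at 22 weeks, whereas at 9 weeks 6 of 7 lie above 0 with all libraries and all 7 lie below 0 without that library.

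A test of the difference between the diet effects of the 2 sets left 0 of the 7 genes past the threshold, with 0.00713% of all genes called (1 gene, the hormone gene Nts). The adjusted p was 0.9999 for each of the 7 (edgeR QL test of the interaction, BH). The interaction log2 values, 22 minus 9 weeks, ran from -4.34 for Scg2 (SE 1.42) to -2.16 for Pcsk1 (SE 1.00). The unadjusted p of this interaction in the edgeR fit was under 0.05 for 6 of the 7, against 3.27% of all genes, and these values include mouse 8 at 9 weeks. A difference between the 2 feeding times was therefore not shown for any of these genes.

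The mouse numbers in the labels were grouped here into 3 series (1 to 8, multiples of 10, and other numbers from 21 to 64). Each series has both diets in both sets. The labels themselves name no series, and what a series stands for is not known. RFD mouse 84 at 9 weeks and HFD mouse 65 at 22 weeks belong to none of the 3, and they are left out of the values within series but kept in those over all libraries. At 22 weeks the mean log2(CPM + 1) of HFD minus RFD was negative for 7 of 7 tested genes in each of the 3 series. Of all 10 genes, 9, 8 and 9 were negative in the 3 series, and 8 over all libraries. For Scg2 it was -2.10, -4.28 and -1.58, and for Chgb -2.002, -3.38 and -2.05, beside -2.42 and -2.31 over all libraries. Each series held 3 or 4 libraries per diet at 22 weeks. The share of all genes tested that was negative within a series was not determined. In the count fit over all libraries it was 52.1% at 22 weeks. Genes that vary together, as Chgb and Chga did (r = 0.860), do not count as separate results. At 9 weeks 3, 6 and 5 of the 7 were negative in the 3 series, and for Pcsk1 the values were 2.34, 1.34 and -0.69. On this scale, which weighs a high library less than the count fit does, 5 of the 7 were negative over all libraries at 9 weeks, against 1 of 7 in the count fit.

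**Figure D3:**
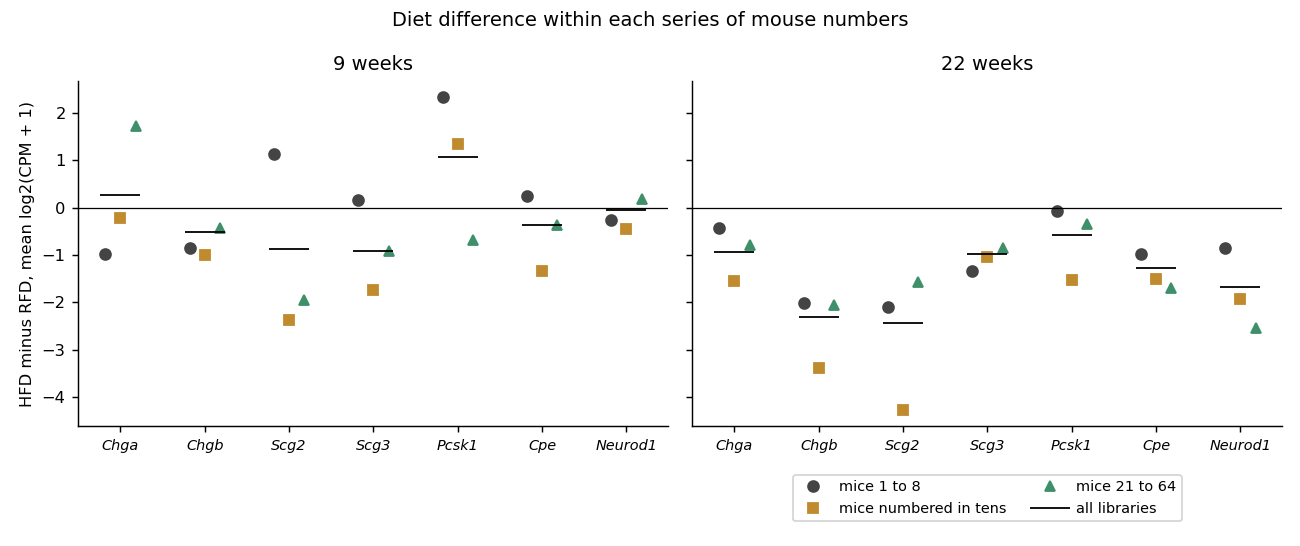
Difference of HFD minus RFD in mean log2(CPM + 1) on the y axis for the 7 tested genes, within the mice numbered 1 to 8 (circles), in multiples of 10 (squares) and 21 to 64 (triangles), and over all libraries (bars), at 9 weeks (left) and 22 weeks (right). At 22 weeks all points lie below 0, and at 9 weeks the series lie on both sides of 0 for every gene but Chgb.

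The 10 genes were then set beside the gut hormone genes of the same libraries. Of 14 hormone genes, 9 passed the filter, and at 22 weeks 5 of the 9 were called and lower on HFD (background 0.292% lower), with a median log2 fold change of -6.09. These were Cck, Nts, Gcg, Ghrl and Pyy, the genes of cholecystokinin, neurotensin, proglucagon, ghrelin and peptide YY, with adjusted p of 0.000499, 7.53e-05, 0.0185, 0.0162 and 0.0333 (edgeR QL, BH). Gcg and Pyy, and Sst among those not called, passed the filter only with RFD libraries at 22 weeks counted. Their place among the 9 thus depends on the group where they were higher, and they add no separate support to the count of 5. Mean CPM on RFD and HFD was 93.9 and 0.528 for Cck, 83.7 and 0.131 for Nts, 22.5 and 0.335 for Gcg, and 8.09 and 0.0942 for Ghrl. Pyy had a mean of 12.8 CPM on RFD and no read in the 12 HFD libraries. That is at least 98.5-fold lower, with a floor of 3 reads over the group. The RFD medians of Cck, Nts, Gcg, Ghrl and Pyy were 37.8, 29.3, 1.58, 1.115 and 0.824 CPM. No read of them was found in 3, 3, 5, 5 and 5 of the 11 RFD libraries. The RFD means of Gcg, Ghrl and Pyy therefore rest on few libraries, with highest values of 129.4, 63.5 and 71.3 CPM. The calls of all 5 were lost with either hormone covariate described further on, which holds these genes themselves (adjusted p from 0.243 to 0.939 in the edgeR fits). Those of Gcg, Ghrl and Pyy were also lost with limma on log2(TPM + 1) (adjusted p = 0.459, 0.341 and 0.177). Gip, the incretin of K cells and after Sct the hormone gene with the highest mean TPM, had 30.7 and 4.36 CPM and was not called (log2 fold change -3.09, adjusted p = 0.418, same edgeR test). It had no read in 7 of 11 RFD and 10 of 12 HFD libraries, and 45 of its 48 HFD reads came from mouse 6. Gip was called without that library (log2 fold change -7.21, adjusted p = 0.0285) and with the tuft marker covariate (-6.46, adjusted p = 0.0852) in the edgeR fit. At 9 weeks 0 of the 9 tested hormone genes were called in the edgeR test, against 3.07% of all genes. An unadjusted p under 0.05 in that test was found for 0 of the 9, against 18.2% of all genes.

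Sct was abundant on both diets. It ranged from 108.2 to 508.7 CPM on RFD and from 18.1 to 322.3 CPM on HFD at 22 weeks and was not called (log2 fold change -0.72, SE 0.33, adjusted p = 0.456 in the same edgeR test). The other 13 hormone genes summed to a median of 268.8 CPM on RFD (3.56 to 535.7) and 1.75 CPM on HFD (0 to 62.2). The 10 genes examined summed to a median of 118.7 CPM on RFD (8.98 to 654.7) and 23.9 CPM on HFD (6.93 to 184.3) at 22 weeks. At 9 weeks their medians were 163.8 CPM on RFD (25.6 to 819.3) and 98.8 CPM on HFD (5.77 to 2402).

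In each set, the 5 libraries with the most CPM on the 13 hormone genes were set beside the signal of the 10 genes examined. At 22 weeks these 5 libraries were all on RFD, made up 21.7% of the libraries, and held 78.1% of the hormone CPM, 46.3% of the CPM of the 10 genes and 30.01% of the Sct CPM. At 9 weeks the 5 libraries, 2 on RFD and 3 on HFD, made up 22.7% of the libraries. They held 81.7%, 44.6% and 35.4% in the same order. Most of the first 2 shares at 9 weeks came from mouse 8 on HFD, which alone held 53.6% of the hormone CPM and 34.3% of the CPM of the 10 genes. It held 12.2% of the Sct CPM. Outside the 5, the summed CPM of the 10 genes still reached 654.7 at 22 weeks and 819.3 at 9 weeks.

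The libraries with the most granin signal carried different hormone genes. Mouse 8 on HFD at 9 weeks was led by Gip (3221 CPM), mouse 1 on RFD by Cck (88.0 CPM), and mouse 24 on RFD by Sst (48.1 CPM), the gene of somatostatin. Mouse 63 on HFD came at rank 3 at 9 weeks with 774.0 CPM of the 10 genes, 94.9% of it from Chga and Chgb, yet only 22.6 CPM of the 13 hormone genes, led by Tac1 (15.98 CPM), the substance P precursor. At 22 weeks the leading libraries were mice 22 and 1 on RFD, both led by Cck (215.9 and 205.9 CPM), and mouse 4 on RFD, led by Nts (208.4 CPM). The HFD library with the most, mouse 6, had 184.3 CPM of the 10 genes and was led by Gip (50.9 CPM). Its tuft marker sum of 477.5 TPM was the lowest of the 23 libraries at 22 weeks.

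**Figure D4:**
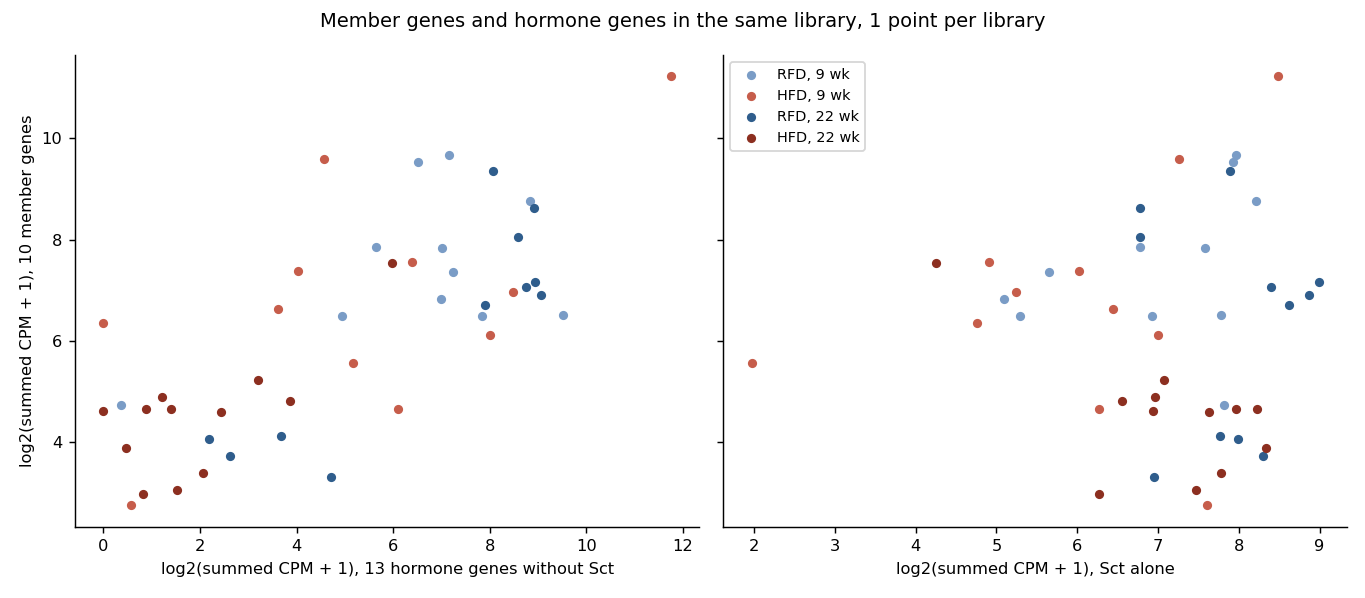
Summed CPM of the 10 genes on the y axis against the summed CPM of 13 hormone genes without Sct (left) or Sct alone (right), all as log2(CPM + 1), 1 point per library coloured by group. On the left, most HFD libraries at 22 weeks lie at the lower left (hormone median 1.75 CPM) and most RFD libraries of that set to the right (268.8 CPM), and on the right the 2 diets overlap.

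**Figure D5:**
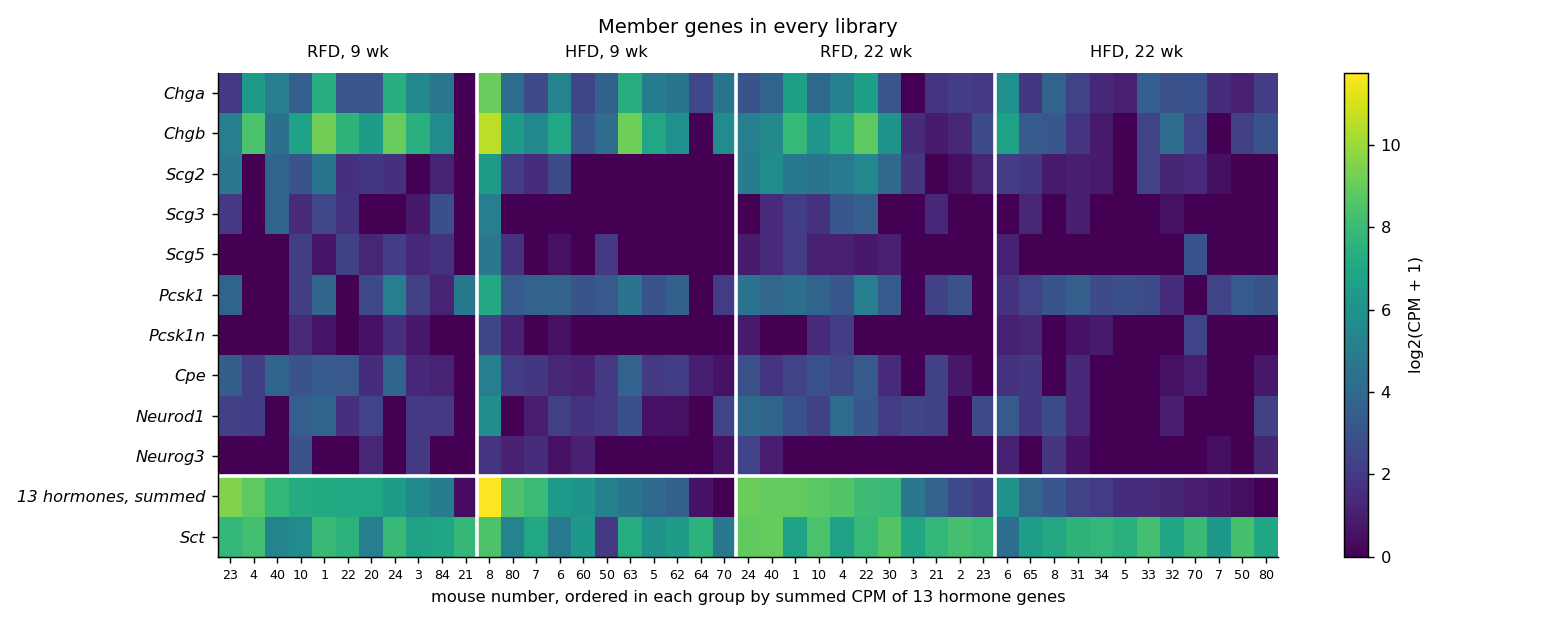
Log2(CPM + 1), as colour, of the 10 genes, the 13 summed hormone genes and Sct (rows) in each of the 45 libraries (columns, mouse numbers), ordered within each group by the hormone sum. The HFD library of mouse 8 at 9 weeks is the brightest column, and Scg2 is dark in all 12 HFD libraries at 22 weeks (at most 4.34 CPM).

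With the log hormone level of the library as a covariate, the diet effect on Scg2 at 22 weeks was no longer called. Its log2 fold change was -1.57 (adjusted p = 0.742) with all 14 hormone genes in the covariate and 0.60 (adjusted p = 0.824) without Sct (edgeR QL, BH, the second chosen after the data were seen). Diet and hormone level went together at 22 weeks, and their parts in this difference cannot be told apart. With the mean log2 CPM of the tuft markers as the covariate the call held (log2 fold change -4.05, adjusted p = 0.0102, same edgeR test). It also held with the log of the summed CPM of the Paneth markers (-3.92, adjusted p = 0.0133, same edgeR test). The tuft covariate was not the summed TPM of its markers. That sum ranged from 2809 to 16439 TPM on RFD (median 12203) and from 477.5 to 13755 TPM on HFD (median 9918) at 22 weeks. The Paneth sum had medians of 3705 TPM on RFD and 38278 TPM on HFD, and ranged from 149.2 to 289896 TPM over that set. With the tuft covariate Chgb (log2 fold change -4.38, adjusted p = 0.00935) and Chga (-2.32, adjusted p = 0.0939) also passed in the edgeR fit.

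Of 21 further granule and exocytosis genes, 16 were tested, 1 was called and lower at 22 weeks (background 0.292% lower) and 0 at 9 weeks (background 3.07% in either direction), with median log2 fold changes of -0.52 and -0.03. The gene called was Resp18, an endocrine secretory protein gene, with at most 10 reads on RFD and at most 2 on HFD (log2 fold change -3.64, SE 0.95, adjusted p = 0.0943 by edgeR QL, BH). Resp18 passed the filter only with RFD libraries at 22 weeks counted, the group where it was higher. Its call was lost without any of 18 of the 23 libraries. Of 17 further endocrine transcription factor genes 8 were tested, and 0 were called at either time, with 2 of the 8 at an unadjusted p under 0.05 at 22 weeks (10.3% of all genes) and 0 at 9 weeks (18.2% of all genes) in the edgeR fit. Their medians were -0.65 and -0.15.

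Among the 3 serotonin pathway genes, Ddc, the aromatic amino acid decarboxylase, rose on HFD at both times (background 1.83% higher at 9 weeks and 0.435% at 22 weeks), in the direction opposite to Scg2 at 22 weeks. Ddc had 55.8 and 104.6 CPM on RFD and HFD at 9 weeks (log2 fold change 0.93, SE 0.23, adjusted p = 0.0624) and 65.3 and 127.0 CPM at 22 weeks (0.95, SE 0.20, adjusted p = 0.0257, edgeR QL, BH). It was read in all 45 libraries, enterocytes are known to express it too, and at 9 weeks the call was lost without any of 10 of the 22 libraries (adjusted p up to 0.126 in that edgeR test). At 9 weeks the Ddc call was also lost with limma (adjusted p = 0.416), the Paneth covariate (0.224) and the tuft covariate (log2 fold change 0.55, adjusted p = 0.543). At 22 weeks it held without each library in turn and was lost with limma (adjusted p = 0.195) and with the hormone covariate with Sct (0.285) or without it (0.149). Tph1, which makes the serotonin precursor in enterochromaffin cells, averaged 7.86 CPM in RFD and 0.480 CPM in HFD mice at 22 weeks and was not called (log2 fold change -3.84, SE 1.13, adjusted p = 0.153 in the same edgeR test). Its median was 0 CPM on both diets, with no read in 6 of 11 RFD and 8 of 12 HFD libraries, so the RFD mean rests on few libraries.

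The likeness of patterns was described by Pearson's r of log2(CPM + 1), centred on the group means, over the 45 libraries and all 14019 other tested genes, with no test. The 5 genes most like Chgb were Chga (r = 0.860), Fabp5 (0.703), Bex2 (0.701), Tph1 (0.676) and Cck (0.675). The 5 most like Chga were Chgb (0.860), Tph1 (0.763), Bex2 (0.678), Cpe (0.635) and Serpinf2 (0.630). Without mouse 8 on HFD at 9 weeks the r of Chga with Chgb was 0.846, and the ranks were not recomputed. Among the other members, Cpe ranked 8th, Neurod1 18th and Scg2 35th of the genes like Chgb, whereas Scg3 ranked 833rd and Pcsk1 1032nd. Sct ranked 9464th (r = -0.00065). The libraries share a preparation and differ in depth and in the markers of other cells, which also enter these values.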

How the data were processed

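RNA of sorted tuft cells was amplified with Smart-seq2 (no molecular identifiers) by the authors, who trimmed reads with cutadapt 1.15, aligned them with STAR 2.6.0 and estimated expected counts and TPM per gene with RSEM (GRCm38, per the labels). The deposited TPM values are per 1000000 transcripts; 8.79% of the deposited expected counts above 0 were not whole, and they were rounded. The authors' weighting by cell type proportion was not repeated, and 24 columns matching no sample used here and the FPKM tables were not used.

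Symbols came from GENCODE M21 (47224 of 47729 identifiers), and 19 genes with a shared symbol were removed. Genes with more than 5 reads in at least 6 of 45 libraries were fitted per set with edgeR 4.0.16 (TMM, quasi-likelihood test), with Benjamini-Hochberg adjustment over 14020 genes and a threshold of 0.1 (R 4.3.3). DESeq2 1.42.0 and limma 3.58.1 (pseudocount 1) were alternatives. The study's own test, SAM-seq, was not run. Scripts were tested on simulated data. SE is the log2 fold change divided by the root of F. The interval is 1.96 SE to each side, and PCR reads are not independent molecules. All 10 genes were named, with called genes of the hormone, serotonin, granule and transcription factor lists, the 3 hormone genes of highest mean TPM, and the 5 genes most like the 2 most-read members. Members and lists were chosen with earlier results of these data known. Mice of a group shared cages, so p-values measure the spread between mice that may not be independent.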

Additional observations from a re-analysis of the deposited data

Results flagged for a closer look

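The diet effect on Nts, the neurotensin gene, differed between the 2 sets in the test of the interaction, with a log2 difference of -8.45 between the diet effect at 22 and at 9 weeks (SE 1.65, adjusted p = 0.0695, edgeR QL, BH). Mean Nts CPM in RFD and HFD mice was 4.97 and 4.47 at 9 weeks, and 83.7 and 0.131 at 22 weeks. The same edgeR test without the filter on low counts gave an adjusted p of 0.00253, but a term for the series of mouse numbers (0.130) or leaving out the 2 libraries of low total (0.102) ended the call. None of the 10 endocrine genes examined met a criterion for a closer look.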

How the results depend on the processing

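No paired analysis was possible because the diets of a set share no mouse number in the labels. The causes of the changes given here were not tested. At 9 weeks the 431 genes became 1534 with DESeq2, 667 in a single fit over 4 groups, 260 without the filter, 254 without the 2 libraries of low total, 51 with the hormone covariate, 929 with that covariate without Sct, 21 with the Paneth covariate, 16 with the tuft covariate and 11 with limma on log2(TPM + 1), and 48 to 2004 with each library left out. At 22 weeks the 102 genes became 351 with DESeq2, 175 with the tuft covariate, 162 with the series term, 47 with limma and 17 with the hormone covariate without Sct, and 63 to 649 with each library left out. At 22 weeks no library had a low total, so that alternative was not run there. Covariates without Sct or on Paneth markers were added after the data were seen.

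DESeq2 gave no adjusted p for 4 of the 7 members at 9 weeks and for 3 at 22 weeks. Members called stayed at 0 at 9 weeks and for the interaction under the alternatives run. At 22 weeks the 1 member called, Scg2, became 2 with DESeq2, without the filter or with the Paneth covariate (Chgb added), 2 with the series term (Scg3 added), 3 with the tuft covariate (Chga and Chgb added), and 0 with either hormone covariate or in the fit over 4 groups, and it was 1 to 3 with each library left out.

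Directions at 22 weeks held for all 7 tested genes except with hormone covariates. With all 14 hormones the log2 fold changes of Pcsk1 and Sct became 0.78 and 0.33. Without Sct, those of Chga, Chgb, Scg2, Pcsk1, Gcg, Resp18 and Gip became 1.69, 1.46, 0.60, 0.71, 0.79, 0.26 and 3.91.

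At 9 weeks, where no member was called, signs turned often. Chgb became -0.63 with limma, -0.12 with the series term and -0.21 with the Paneth covariate. Scg2 became -0.54, -2.07 and -0.54 with these, -2.27 with the tuft covariate, -0.84 with the hormone covariate and -1.20 without Sct. Scg3 became -0.54, -2.04 and -0.98 with the first 3, and -2.80, -3.25 and -2.62 with the others, and -4.24 with DESeq2. Neurod1 became -0.90 with DESeq2, -0.0310 with limma, -0.26 with the tuft covariate and -0.0277 with the Paneth covariate. Pcsk1 became -0.0556 with DESeq2, and Cpe 0.0494 without the filter, 0.10 without the libraries of low total and 0.23 with the hormone covariate without Sct. With each library left out, the ranges were -0.63 to 1.02 for Chga, -0.82 to 0.61 for Chgb, -2.59 to 0.96 for Scg2, -5.33 to 0.65 for Scg3, -0.00611 to 1.55 for Pcsk1, -0.92 to 0.18 for Cpe and -0.87 to 1.26 for Neurod1. The lowest of each was without the HFD library of mouse 8, and for all but Cpe no other library turned the sign. Scg3 and Cpe were sparse on both diets at 22 weeks, with at most 14 and 17 reads in a library, so that single reads move their values. Median totals there were 1348669 reads on RFD and 1684939 on HFD.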
